A study of Mus musculus with 18 samples.

Results

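The regions described here were called for macroH2A2-GFP after 24h of induction and had no counterpart in cells given the EZH2 inhibitor GSK126 before a 24h induction. Members were the regions of the 24h list with a region score of 2 or more, on the autosomes other than 8, 15 and 17, that shared no base with any region of the 24h_GSK126 list. There were 3124 members among 20355 regions of that score on these 16 autosomes, out of 44827 regions in the whole 24h list and 399440 regions in the 8 lists called with the same window. Hence 15.3% of the scored 24h regions were members. The other 17231 regions, which shared at least 1 base with a 24h_GSK126 region, are called retained regions. Absence from the 24h_GSK126 list chose the members, so it is a description here and not a result. Chromosomes 8, 15, 17, X and Y were not used here.

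All macroH2A2-GFP libraries came from SV40-immortalized dermal fibroblasts of newborn male 129/S6 mice at passages 20 to 30. These cells lack macroH2A1 and macroH2A2 and carry a macroH2A2-GFP transgene that doxycycline switches on, so the knockout and the transgene are shared by the drug-treated and untreated groups. The 24h_GSK126 and 6h_GSK126 cells had 10 days of 5 uM GSK126 and then 0.5 ug/ml doxycycline for 24h or 6h. The 24h_FP cells had 0.5 ug/ml doxycycline for 24h, with 0.5 uM flavopiridol, an inhibitor of transcription elongation kinases, over the last 18 h. The untreated series had 0h, 6h, 24h and 5d of doxycycline at the same dose. H2A.Z was profiled in wild-type primary dermal fibroblasts of newborn female 129/S6 mice at passage 0 to 1, which differ from the other cells in sex, genotype and immortalization. Each of these chromatin conditions had 1 library, so differences between lists are described without a test and the difference between 2 drug states cannot be told apart from that between 2 libraries. Poly(A) RNA had 3 libraries at each of 0h, 6h and 24h, all without GSK126. Fibroblast identity was checked in that RNA: 18 of 20 dermal fibroblast markers had 1 CPM (counts scaled to the library's total) or more at 0h, with a highest level of 4559 CPM, against 3 of 8 keratinocyte markers (highest 19.4 CPM), 3 of 8 endothelial and mural markers (highest 162 CPM), 1 of 6 macrophage markers, 2 of 8 melanocyte and Schwann cell markers and 2 of 8 adipocyte and muscle markers.

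MacroH2A histones are H2A variants with a large globular macro domain joined to the histone fold. They occupy broad stretches of chromatin that are generally poor in transcription and often carry H3K27me3, the mark set by EZH2 within Polycomb repressive complexes. GSK126 competes with the methyl donor in the catalytic site of EZH2 and lowers H3K27me3. H2A.Z is another H2A variant, best known from the nucleosomes around active and poised transcription start sites. The targeted gene was followed in RNA as H2afy2, which encodes macroH2A2: it averaged 1727 ± 13.8 CPM at 24h, against 15.1 ± 8.80 CPM at 0h (SD, n = 3 each), and 0h replicate 2 stood at 25.3 CPM, against 10.5 and 9.61 CPM in the other two 0h libraries. Which gene copy these H2afy2 counts come from was not tested. RNA of H2afy, which encodes macroH2A1, was counted as well although these cells are described as lacking macroH2A1. It averaged 56.8 ± 1.86 CPM at 0h and 57.0 ± 4.83 CPM at 24h (SD, n = 3 each). Whether that RNA is intact was not tested.

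The start-site windows of 154 RefSeq transcript starts (139 genes) lay wholly inside a member, and 4 of them are shown: the 3 whose members had score 4, and the one in the widest of several members of score 3. Each sequence is the RefSeq window of 250 bases before to 50 bases after the start on GRCm38.p6, 5′ to 3′ on the gene's strand, with every CG in capitals. Slc6a5 encodes the neuronal glycine transporter GlyT2 (chr7:49910049-49910348, plus strand), and Hes7 encodes a basic helix-loop-helix repressor of the somite segmentation clock (chr11:69120203-69120502, plus strand). Syt6 encodes a synaptotagmin, a membrane trafficking protein (chr3:103574995-103575294, plus strand), and Gm41436 is annotated as a long noncoding RNA gene (chr16:26314061-26314360, plus strand).
Slc6a5: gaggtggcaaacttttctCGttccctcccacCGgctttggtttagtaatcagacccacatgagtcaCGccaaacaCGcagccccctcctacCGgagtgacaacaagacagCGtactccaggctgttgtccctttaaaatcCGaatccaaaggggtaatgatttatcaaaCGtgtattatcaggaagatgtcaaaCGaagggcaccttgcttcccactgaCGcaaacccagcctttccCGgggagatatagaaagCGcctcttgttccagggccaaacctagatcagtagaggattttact
Hes7: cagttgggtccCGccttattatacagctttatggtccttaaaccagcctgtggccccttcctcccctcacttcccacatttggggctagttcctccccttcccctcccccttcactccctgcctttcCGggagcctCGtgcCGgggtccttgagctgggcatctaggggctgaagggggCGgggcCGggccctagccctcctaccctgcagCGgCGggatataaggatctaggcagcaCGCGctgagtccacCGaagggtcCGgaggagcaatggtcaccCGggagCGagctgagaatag
Syt6: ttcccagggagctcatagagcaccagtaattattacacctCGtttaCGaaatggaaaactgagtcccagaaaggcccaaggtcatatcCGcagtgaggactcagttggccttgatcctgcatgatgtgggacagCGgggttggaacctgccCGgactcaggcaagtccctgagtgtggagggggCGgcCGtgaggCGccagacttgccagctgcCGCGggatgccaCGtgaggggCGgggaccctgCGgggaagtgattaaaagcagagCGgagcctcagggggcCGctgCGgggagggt
Gm41436: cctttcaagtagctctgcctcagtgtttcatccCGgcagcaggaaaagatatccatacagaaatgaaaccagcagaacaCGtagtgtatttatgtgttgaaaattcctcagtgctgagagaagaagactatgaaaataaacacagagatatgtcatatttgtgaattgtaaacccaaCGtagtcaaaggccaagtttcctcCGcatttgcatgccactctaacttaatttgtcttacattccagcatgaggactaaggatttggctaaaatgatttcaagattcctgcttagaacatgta

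These windows held 12 CG dinucleotides at Slc6a5, 14 at Hes7, 16 at Syt6 and 4 at Gm41436. The member over the Slc6a5 start (2000 bases, score 4) shared 1600 bases with the 6h_GSK126 list, and in the untreated series 0 with the 0h list, 1600 with 6h and 1600 with 5d. The Hes7 member (1600 bases, score 4) lay wholly in regions of the 6h_GSK126, 24h_FP and 6h lists and in none of the 5d list. The Syt6 member (1600 bases, score 4) shared no base with any other list, H2A.Z included. The Gm41436 member was wider (9200 bases, score 3) and had bases in all 6 other lists, with 7200 of them at 0h and 9200 at 5d.

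Members were narrow. Their median width was 3000 bases, against 5800 bases for retained regions, and the widest member had 20800 bases, against 349800 bases for the widest retained region. Together they covered 10.3 Mb, against 157 Mb in retained regions. The 24h regions absent from another induced list had similar median widths, so narrowness was not particular to members. These were 2800 bases for absence at 6h and 3000 bases each for absence at 5d, with 24h_FP and in 6h_GSK126. Widths under 2 kb were found in 22.3% of members and 7.84% of retained regions, and widths of 8 kb or more in 2.98% of members (93 regions) and 36.6% of retained regions. Region scores differed less: 81.2% of members and 77.2% of retained regions had the lowest score allowed, 2. The share of 24h regions that were members was 41.0% under 1 kb, 33.1% at 1 to under 2 kb, 26.5% at 2 to under 4 kb, 13.2% at 4 to under 8 kb and 1.45% at 8 kb or more. By score it was 16% at score 2, 12.3% at 3, 14.3% at 4 and 20.5% at 5 or more, with the last class holding 234 regions. The share thus fell with width in steps and had no such order with score.

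Absence from the 24h_GSK126 list was about as frequent as absence from the other induced macroH2A2 lists. Of the same 20355 regions, 15.3% had no base in the 24h_GSK126 list, with a 95% exact binomial interval of 14.9 to 15.9%. The corresponding share was 13.4% for 6h_GSK126, 17.2% for 24h_FP, 13.9% for 6h and 16.4% for 5d, so it was higher for 2 of these 4 lists and lower for the other two. Only the uninduced 0h list stood apart among the macroH2A2 lists, at 45.1%, and the H2A.Z list lacked 68.7%. In the reverse direction, 3214 of 22135 regions of the 24h_GSK126 list with score 2 or more had no base in the 24h list, which is 14.5%. The number of regions differed as well: the 24h_GSK126 list held 37089 regions over 252 Mb on the 16 autosomes, against 36515 regions over 269.9 Mb for the 24h list, and the read depth behind either is unknown.

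The same held within classes of width. Among 24h regions under 1 kb, 41.0% were absent from the 24h_GSK126 list, against 33.2% (5d) to 44.5% (24h_FP) for the other 4 induced lists. At 2 to under 4 kb the share was 26.5% for 24h_GSK126, against 23.3% (6h_GSK126) to 29.3% (5d). At 8 kb or more it was 1.45% for 24h_GSK126, against 1.08% (6h) to 2.29% (24h_FP). In each of the 5 width classes the 24h_GSK126 list lay between the lowest and the highest of the other induced lists.

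**Figure D1:**
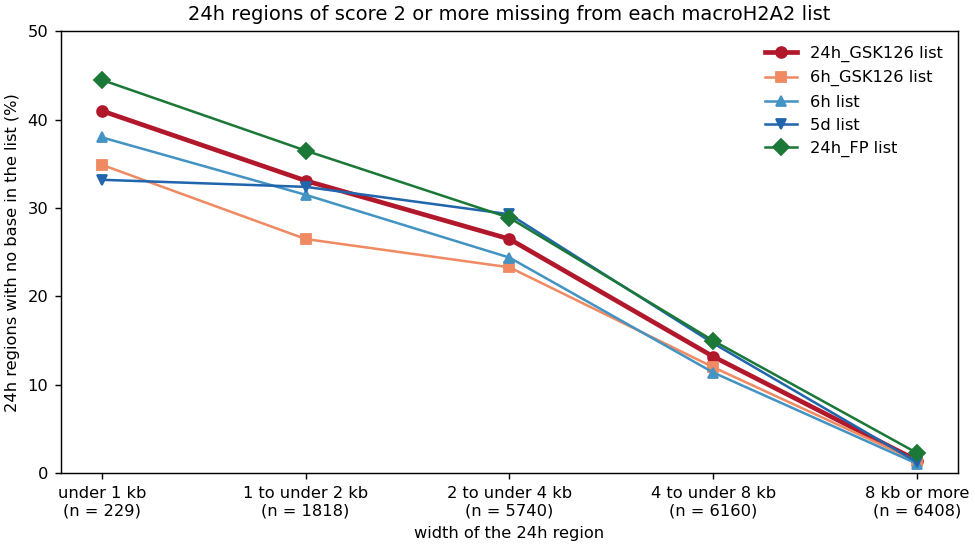
Share of 24h regions of score 2 or more (y axis, percent) with no base in each of 5 induced macroH2A2 lists, by width of the 24h region (x axis, with the number of regions). The thick red line is the 24h_GSK126 list; it runs from 41.0% under 1 kb to 1.45% at 8 kb or more, inside the range of the other lists in every class.

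The chromosomes differed in how many of their regions were members. The share ran from 9.64% on chromosome 18 to 23.6% on chromosome 7, with a median of 14.9% over the 16 autosomes. Chromosome 7 was also the highest for absence at 6h (18.7%), at 5d (25.2%), at 0h (65.8%) and after 6h_GSK126 (18.4%), and chromosome 18 the lowest for absence at 6h (9.38%) and after 6h_GSK126 (10.2%). With flavopiridol the order differed, with chromosome 14 highest (27.1%) and chromosome 5 lowest (9.75%).

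Members were found less often than retained regions in every other list, which the rule did not use. At 0h, before doxycycline, 11.5% of members (360 of 3124) had a base in a region, against 62.7% of retained regions (10810 of 17231). At 6h the shares were 55.8% of members and 91.6% of retained regions, and at 5d they were 42.7% of members and 91.0% of retained regions. With flavopiridol 54.4% of members and 88.0% of retained regions were found. In the second GSK126 library, 6h_GSK126, 48.3% of members were found, against 93.5% of retained regions. H2A.Z regions of the wild-type cells touched 19.7% of members and 33.5% of retained regions. With 50% or more of the region covered, that order was the other way, at 8.35% of members and 7.49% of retained regions. Exact 95% intervals for members were 10.4 to 12.7% at 0h, 54.0 to 57.5% at 6h, 41.0 to 44.5% at 5d and 46.6 to 50.1% for 6h_GSK126. These intervals cover counting error over regions only. Regions absent from another induced list were likewise found less often in 24h_GSK126. Of those absent at 6h, 48.9% had no base in 24h_GSK126, against 15.3% of all 20355 regions. The share was 53.7% of those absent at 5d, 40.8% for 24h_FP and 59.2% for 6h_GSK126. Shares between the other lists were not computed, so the contrast is not shown to be particular to members.

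The lower shares by 1 shared base were present on 16 of 16 chromosomes for each of the 6 lists. The chromosomes share 1 library per list and are not replicates. Members at 6h_GSK126 ranged from 40.0% on chromosome 5 to 58.1% on chromosome 6, against 90.6 to 95.3% of retained regions. Members also stayed below retained regions inside each class of width, except for H2A.Z under 1 kb, where 9.57% of members and 7.41% of retained regions were touched. At 8 kb or more, 75.3% of the 93 members and 99.3% of retained regions were found at 6h, and 72.0% of members and 99.0% of retained regions in 6h_GSK126. Where a member was found in another macroH2A2 list it was mostly covered: the median share of its bases was 83.3% at 6h, 87.5% at 5d, 100% with flavopiridol and 72.5% in 6h_GSK126, against 84.1%, 90.0%, 97.0% and 75.4% for retained regions in the same lists. In the H2A.Z list the median was lower, at 39.4% of bases for members and 24.3% for retained regions.

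**Figure D2:**
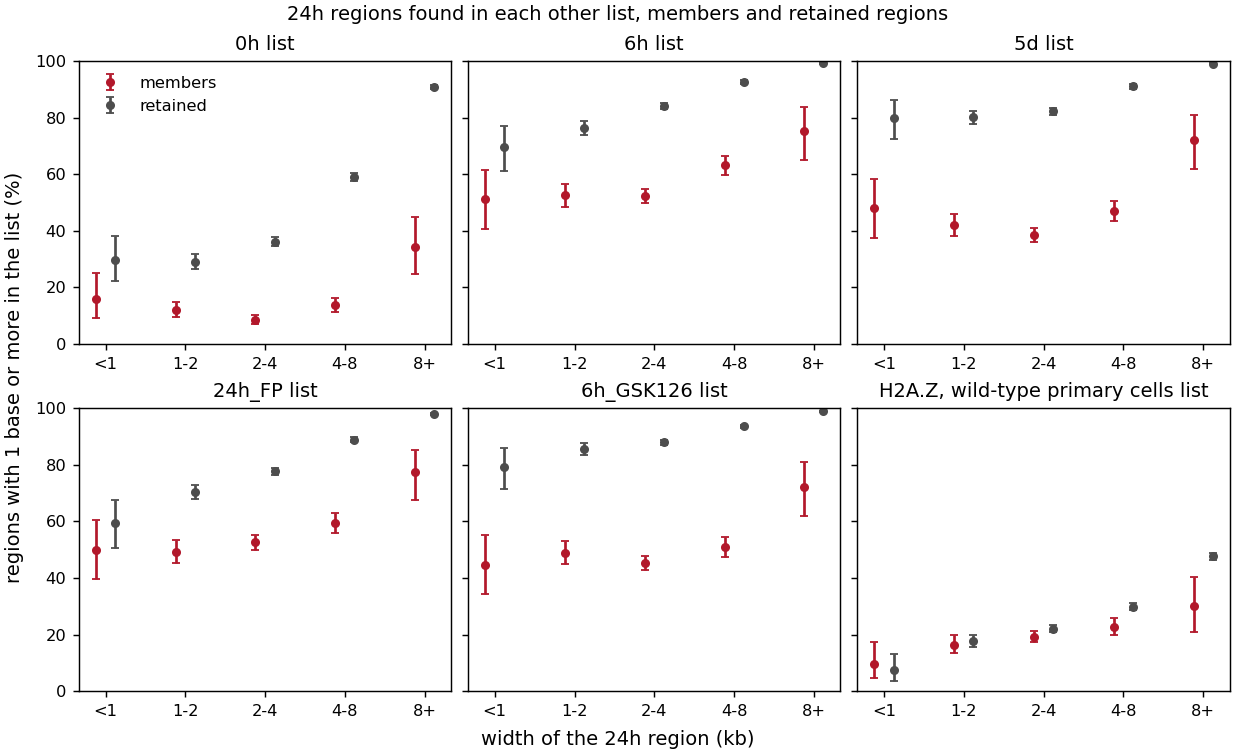
Share of members (red) and retained regions (grey) with 1 base or more in each other list (y axis, percent), by width of the 24h region (x axis, kb), with exact 95% binomial intervals over regions. Members lie below retained regions in all panels and classes except H2A.Z under 1 kb.

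The members split into many combinations of lists. The 24h library was the only macroH2A2 list to hold 456 members (14.6%), against 72 retained regions that appear in the 24h and 24h_GSK126 lists alone (0.418%). A base in all of the 6h, 5d, 24h_FP and 6h_GSK126 lists was found for 378 members (12.1%), against 13048 retained regions (75.7%). Of these, 132 members (4.23%) had a base at 0h as well. The 378 members are the regions missing from the 24h_GSK126 list alone among the induced lists. By the same count 342 of the 24h regions were missing from 6h_GSK126 alone, 447 from 6h alone, 847 from 5d alone and 1099 from 24h_FP alone, so the 24h_GSK126 count was the second lowest of the 5.

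Of the members, 1614 (51.7%) were absent from 6h_GSK126 too. Those missing from both GSK126 lists but found at 6h, at 5d and with flavopiridol were 166, which is 5.31% of members and 0.816% of the 20355 regions. The same count for another pair of lists, missing at 5d and with flavopiridol but found in the other 3 induced lists, was 260 regions (1.28%). With the 2 libraries at 6h taken as a pair, 274 members (8.77%) were found in 6h_GSK126 and not at 6h, against 506 members (16.2%) found at 6h and not in 6h_GSK126. Among retained regions 864 (5.01%) were found in 6h_GSK126 alone of the pair and 530 (3.08%) at 6h alone, which is the opposite order. The 6h_GSK126 list had more regions than the 6h list, 65049 against 49963 on the 16 autosomes.

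Members lay at varied distances from regions of the 24h_GSK126 list. The median distance to the nearest one was 7400 bases. No such distance was taken for regions absent from the other lists, so it has no background here. It was 1 kb or less for 221 members (7.07%), 5 kb or less for 1278 (40.9%) and over 50 kb for 411 (13.2%). On the other side of the rule, retained regions had a median of 91.7% of their bases in the 24h_GSK126 list, 31 of them shared under 10% and 19 shared 200 bases or fewer. At the score threshold, the 2536 members of score 2 had a median width of 3200 bases, and the 4805 regions of score 1 with no base in the 24h_GSK126 list, just outside the rule, had 4400 bases. Of the score 2 members 54.6% were found at 6h and 43.8% at 5d, and of those score 1 regions 41.9% at 6h and 52.7% at 5d.

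Some members stood next to each other. Counting runs of adjacent scored regions that were all members gave 2383 runs, with 1271 members (40.7%) in runs of 2 or more and 20 runs of 5 or more. The share in runs that an overall member share of 15.3% would give without any clustering was not computed. Runs were not counted for regions absent from the other lists, so 40.7% has no background here. The longest had 9 members and lay in Ank2, which encodes ankyrin-B, an adaptor between membrane proteins and the spectrin cytoskeleton (chr3:126921607-127500347). A 6-member run on chromosome 1 touched Lgr6, an R-spondin receptor, and Ptpn7, a phosphatase. One on chromosome 5 touched Lhx5, a LIM homeobox factor, with 0 of its 6 members found in 6h_GSK126 and 6 at 5d. One on chromosome 11 touched Rbfox3, which encodes the neuronal splicing factor NeuN, with 1 of 6 members found in 6h_GSK126 and 4 at 5d. These runs and genes were chosen after their values were seen.

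In Ank2 the 9 members held 29400 bases, or 5.08% of the gene, and no retained region lay inside it. Of the 9, 8 had a base in 6h_GSK126 and 4 with flavopiridol, and in the untreated series 0 had one at 0h, 9 at 6h and 5 at 5d. The 24h_GSK126 list covered 0.829% of the gene, against 6.84% for the 24h list. The 6h_GSK126 list covered 7.57%, against 9.81% for the 6h list. The other genes with many members were Tnni3k, a cardiac kinase gene with 8, Pebp4 and Nav2 with 6 each, and Foxp1, a forkhead factor gene, Lgr6, Ttc28, Prickle2, Rbfox3 and Cables1 with 5 each. In Foxp1 the 24h_GSK126 list covered 0.134% of the body, against 8% for 24h, while 6h_GSK126 covered 14.2%, against 17.5% for 6h. In Rbfox3 coverage was 0% for 24h_GSK126, against 3.84% for 24h, and 0.759% for 6h_GSK126, against 0.616% for 6h. In the other 7 genes 24h_GSK126 covered 4.24% (Nav2) to 14.9% (Lgr6) of the body, against 10.3% (Nav2) to 43.5% (Lgr6) for 24h, and Prickle2 had 10.7% in 24h_GSK126, against 19.1% for 24h. The difference at 24h in these genes is tied to the choice of members.

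**Figure D3:**
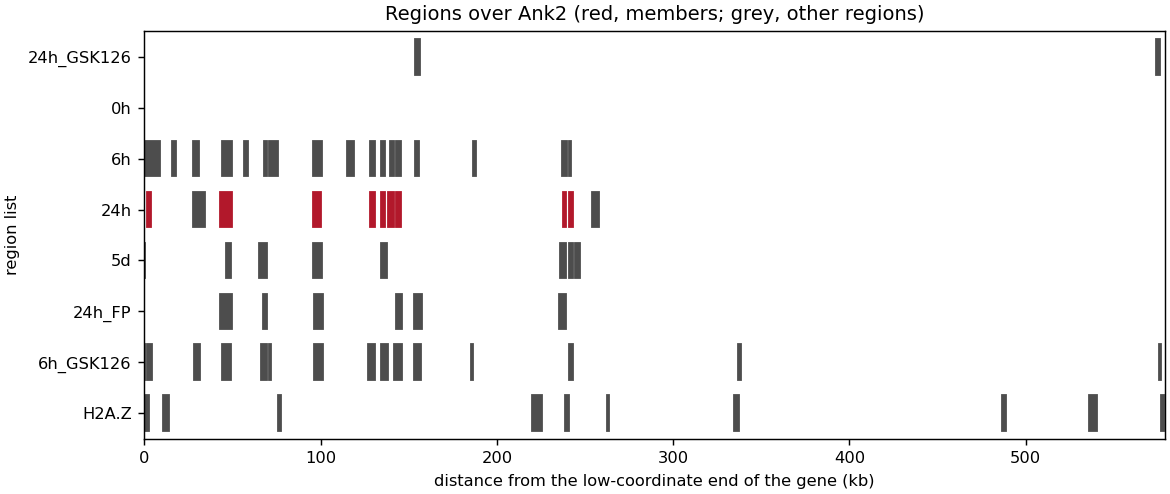
Regions of each list (rows) over Ank2, by distance from the low-coordinate end of the gene (x axis, kb). Red boxes are the 9 members, grey boxes all other regions of any score; the 2 grey boxes in the 24h row are regions of score 1, and the 6h and 6h_GSK126 rows hold regions over most of the members.

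The members with the highest scores were short. The score itself is the authors' and ranks regions within the 24h list. The highest, 24, belonged to a 400-base region in Pkd2l1, a cation channel gene (chr19:44198801-44199200), which lay wholly in regions of the 6h_GSK126, 24h_FP, 0h and 6h lists and had 0 bases at 5d. A 400-base region of score 13 in Fmn2, an actin-nucleating formin gene (chr1:174707401-174707800), shared no base with any other list. A 1000-base region of score 11 lay 494 bases from Ntf5, a neurotrophin gene (chr7:45412201-45413200), with 800 bases in 6h_GSK126, 800 with flavopiridol, 1000 at 6h and 800 at 5d. Others among the 10 highest had scores of 7 or 8 and widths of 600 to 1400 bases, and lay in Ripor2, in the long noncoding RNA gene Gm40337 or between genes.

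The widest members were mostly intergenic and were mostly found at other times. The widest, 20800 bases with score 2, lay between genes with Foxa2, a forkhead factor gene of endoderm and floor plate, as its nearest protein-coding gene at 285676 bases (chr2:147736401-147757200). It had 19000 bases in the 6h_GSK126 list and 20800 with flavopiridol, and 16400 at 0h, 19600 at 6h and 18600 at 5d, so it was called in every macroH2A2 library but 24h_GSK126, whose nearest region was 2600 bases away. The second, 18800 bases near Exoc6, was likewise covered by 17000 to 18800 bases in each of the 5 other macroH2A2 lists. The third, 17000 bases, overlapped Mrc1, the macrophage mannose receptor gene, and had 10400 to 16600 bases in those lists. At the other end, a 12800-base member 23068 bases from Lpin1 (chr12:16499801-16512600) had no base in any other list. All of the 10 widest had score 2 or 3.

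The 191 members (6.11%) found at 6h and 5d but neither at 0h nor in 6h_GSK126 are described by their highest scores. Within genes, those of score 4 or more lay in Sema3e, a semaphorin guidance cue gene (chr5:14224401-14225400, 1000 bases at 6h and 1000 at 5d), and in Boc, a Hedgehog co-receptor gene (chr16:44558801-44562800, 3600 bases at 6h and 3800 at 5d). Others lay in Plk5, a polo-like kinase gene, Ramp1, a receptor activity-modifying protein gene, and Adra1b, an adrenergic receptor gene. All 5 had 0 bases in both GSK126 lists and at 0h, and only the Plk5 region had bases with flavopiridol (2600). The only H2A.Z bases among the 10 leading regions were 2000 in the Boc region.

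Members lay in protein-coding genes more often than retained regions. The midpoint fell in a protein-coding gene for 39.9% of members (1246) and 26.3% of retained regions, and between annotated genes for 50.2% of members and 61.1% of retained regions. This held in each width class: under 2 kb the share in protein-coding genes was 41.8% of members and 32.1% of retained regions, and at 4 to under 8 kb it was 43.5% of members and 26.9% of retained regions. A RefSeq start-site window was touched by 5.51% of members and 9.65% of retained regions. Within width classes that order was the other way, with 7.99% of members and 7.59% of retained regions at 4 to under 8 kb and 2.54% of members and 1.70% of retained regions under 2 kb. Along protein-coding genes of 10 kb or more, 29.4% of 970 member midpoints lay in the first 25% of the gene and 26.5% in the last 25%, against 29.3% in the first and 21.6% in the last for retained regions.

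In all, 1042 of 17787 protein-coding genes (5.86%) had at least 1 base in a member, and 826 of them had a single member. They were long: the median length was 51557 bases, against 31949 bases for the 2363 genes touched only by retained regions and 17743 bases for all protein-coding genes. Of the 1042, 572 (54.9%) also had bases in a retained region. Members took 20% or more of the body in 192 genes and 50% or more in 34. Among long noncoding RNA genes, 430 of 10657 had a member.

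The genes of 3 kb or more with the largest share of the body in members were small and each held 1 member. They were Mfap2, a component of elastic fibre microfibrils (86.0% of the body, chr4:141010424-141015976), and Cyp27b1, the enzyme that makes active vitamin D (85.6%, chr10:127048246-127054884). Next came Pinlyp (83.7%), C1qtnf4, a secreted complement-related protein gene (80.3%), and Hrc, a calcium-binding protein gene of the sarcoplasmic reticulum (79.1%). Trnp1, a nuclear regulator of cortical progenitors (76.1%), Kazald1 (76.0%), the cytokine subunit gene Il27 (73.0%), the kinase adaptor gene Tbkbp1 (71.7%) and Ptx3, a secreted pentraxin of innate immunity (71.0%), completed the 10. All 10 had 0% of the body in 24h_GSK126 regions, a value tied to the choice of members.

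The other lists divided these genes. Mfap2 had 0% of the body covered in 6h_GSK126, 64.8% with flavopiridol, 0% at 0h, 0% at 6h and 57.6% at 5d. Cyp27b1 had 11.4% in 6h_GSK126, 73.6% with flavopiridol, 18.7% at 6h and 0% at 5d. Trnp1 had 35.6% at 0h and was covered by 40.3% or more in each induced macroH2A2 list other than 24h_GSK126. Hrc had no base in any macroH2A2 list but 24h. C1qtnf4 had 38.8% in 6h_GSK126 and 85.5% at 6h, whereas Tbkbp1 had 69.1% in 6h_GSK126 and 44.3% at 6h. Trnp1 was the only one of the 10 with a base at 0h, and 2 of the 10 had bases at 5d.

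**Figure D4:**
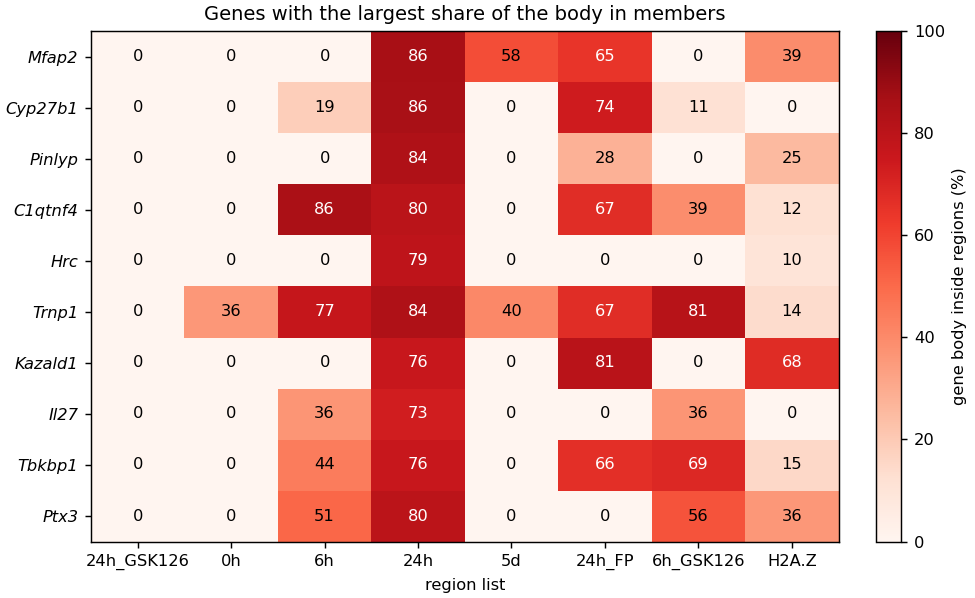
Percent of each gene body inside regions (colour and number) for the 10 protein-coding genes with the largest share of the body in members, by region list (x axis). The 24h_GSK126 column is tied to the choice of members; only the 24h column is high for all 10, and the 0h column is above 0 for Trnp1 alone.

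Gene families were read against the 5.86% of all protein-coding genes with a member and their median length of 17743 bases. Large clustered families of shorter genes (median lengths of 943 to 11089 bases) had few. These were 1 of 1039 olfactory receptor genes (Olfr65, wholly inside a member), 2 of 308 vomeronasal receptor genes, 1 of 86 keratin and keratin-associated genes and 1 of 62 serpin genes. Retained regions touched 1.54% of the olfactory and 3.25% of the vomeronasal receptor genes. They touched 22.1% of the keratin and 19.4% of the serpin genes, against 16.5% of all protein-coding genes. Of 306 genes named Zfp, 8 (2.61%) had a member. Protocadherins, which are long (median 86101 bases), had 2 of 67 (2.99%). Shares above that of all genes were found for several other lists of long genes, with 9 of 33 calcium and sodium channel genes (27.3%, median length 97650 bases), 17 of 89 synaptic and axonal adhesion genes (19.1%, 125947 bases) and 11 of 79 potassium channel genes (13.9%, 32876 bases). Collagens had 7 of 36 (19.4%, 106452 bases), and solute carriers 29 of 306 (9.48%, 29328 bases). Retained regions also touched these lists more often than all protein-coding genes (16.5%), so the higher shares were not particular to members. They touched 39.4% of the calcium and sodium channel genes, 31.5% of the synaptic and axonal adhesion genes and 32.9% of the potassium channel genes. For collagens the share was 36.1% and for solute carriers 26.8%. The share of a list's bases in members, 0.479% over all protein-coding genes, was 0.0583% for protocadherins, 0.682% for the calcium and sodium channels, 0.188% for synaptic adhesion genes, 0.407% for potassium channels, 0.460% for collagens and 0.891% for solute carriers.

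Genes of developmental transcription factors had a member in 20 of 196 cases (10.2%), with a median length of 11283 bases, and 0.871% of their bases lay in members. Retained regions touched 29.6% of the 196, against 16.5% of all protein-coding genes. Pax6, the paired-box factor of eye and forebrain and a well-known Polycomb target (chr2:105668896-105698410), had 3 members over 44.7% of its body and no retained region. Its coverage was 0% for 24h_GSK126, against 44.7% for 24h, and 6.10% for 6h_GSK126, against 43.4% for 6h. All of the 24h coverage lay in members, and over those bases the choice of members fixes the 24h_GSK126 coverage at 0%. Over the rest of the body it was not fixed, and neither was the pair at 6h. Coverage was 32.5% at 0h and 23.7% at 5d. Among 25 known Polycomb-silenced target genes it was the only one with a member (4.00%), and 8 of the 25 had a retained region. Hoxb13 was the only 1 of 30 Hox genes with a member, over 70.2% of its body (chr11:96194316-96196610). Its coverage was 0.436% in 6h_GSK126, against 9.15% at 6h, and it was 61.4% with flavopiridol, 0% at 0h and 61.4% at 5d.

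Gli1, the transcriptional effector of Hedgehog signalling (chr10:127329882-127341579), had 58.1% of its body in a member. Its coverage was 1.02% for 24h_GSK126, 78.0% for 24h_FP, 0% for 6h_GSK126, 5.13% for 6h and 1.02% for 5d. Prrx2, a homeobox gene of skin mesenchyme and the only 1 of 20 fibroblast markers with a member, had 2 members over 28.2% of its body. Its coverage was 4.42% for 24h_GSK126, against 42.1% for 24h, and 39.1% for 6h_GSK126, against 53.6% for 6h. Of the 25 Polycomb group genes themselves, Kdm2b and Aebp2 had a member each, of 2800 and 1600 bases. Cyp46a1, a brain cholesterol hydroxylase gene, had 26.5% of its body in members, and the choline transporter-like gene Slc44a3 had 4 members over 31.3%. Wnt11, a secreted Wnt ligand gene, had 13.0% of its body in a member and no base in any other macroH2A2 list.

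The start-site windows inside members were poor in CG, as were those inside retained regions. Wholly covered windows had a median of 4 CG in 300 bases in members (154 windows) and 4 in retained regions (1790 windows), against 7 over all 27392 windows. For protein-coding genes the medians were 5 in members (72 windows), 5 in retained regions and 13 over all windows. Windows with 10 CG or more made up 26.4% of the protein-coding windows in members, 23.8% of those in retained regions and 57.4% of all. Slc6a5, Hes7 and Syt6, whose sequences are given above, were thus among the CG-richer windows in members, and Gm41436 was at the median. The motif counted was CG, which reads the same on both strands. GC content had a median of 51.3% in members, 48.7% in retained regions and 52.7% over all windows.

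RNA was compared over time of induction in cells without GSK126, so it describes the genes with a member and not their response to the drug. In bulk RNA, a change in the share of cells and a change in RNA per cell cannot be told apart. Of the 1042 genes, 1039 were matched to counts and 545 (52.5%) passed the filter on low counts, against 42.5% of genes with retained regions only and 56.0% of all protein-coding genes. Mean levels under 0.1 CPM at 0h were found for 40.3% of genes with a member, 50.3% of genes with retained regions only and 41.2% of all. Of the 191 matched genes with 20% or more of the body in members, 36.6% passed the filter and 52.9% were under 0.1 CPM. CPM is not divided by gene length. It is compared here between libraries of 1 gene, as detection or to choose genes to name. Shares of genes under or over a CPM level are also set side by side for gene sets. Median lengths were 51557 bases with a member, 31949 bases with retained regions only and 17743 bases for all protein-coding genes. The shares were not corrected for length.

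The genes with a member that had the highest CPM at 0h had few bases in members. Rpl17, a ribosomal protein gene with many near-identical copies in the genome whose counts are therefore uncertain, had 423 bases in a member. Txnrd1 (thioredoxin reductase), Pafah1b2, Celf2 (an RNA-binding splicing factor) and Slit2 (a secreted guidance cue) had 0.163 to 4.22% of the body in members. Among the 10 genes with the largest share of the body in members, 5 were too low to be tested: Mfap2 had 0 to 0.0578 CPM in the 9 libraries, and Pinlyp had counts in 1 library of the 9. Ptx3, also among the 10, had 8.35, 8.45 and 8.78 CPM at 0h.

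At 24h against 0h, 15 of the 545 tested genes with a member were called by edgeR's quasi-likelihood test at a Benjamini-Hochberg adjusted p under 0.05. Of these, 4 rose and 11 fell, which is 2.75% called, against 7.04% of all 13785 genes tested (575 up, 4.17%, and 396 down, 2.87%). The median log2 change was -0.03 for genes with a member and 0.00 for all protein-coding genes tested. Among 986 genes with retained regions only, 15 rose and 30 fell (4.56%), and 7.31% of all protein-coding genes tested were called. Mean levels of 10 CPM or more at 0h were found for 19.9% of matched genes with a member. The share was 19.7% for genes with retained regions only and 41.3% for all protein-coding genes. Whether these levels bear on the share called was not tested. Leaving out a library took the count of 15 to 4 (0h replicate 1), 5 (0h replicate 2), 9 (0h replicate 3), 5 (24h replicate 2) or 8 (24h replicate 3), and DESeq2 called 7. Of the 12 called genes named here, 2 (Rpl17 and Cxcl12) kept the call in every alternative.

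The changes at 24h were small. Cxcl12, a chemokine gene strongly made by fibroblasts, had 202, 206 and 206 CPM at 24h, against 235, 230.1 and 226 CPM at 0h. All 3 libraries at 24h lay below all 3 at 0h, and the log2 change was -0.17 ± 0.026 (SE, edgeR adjusted p = 5.39e-05). Ptx3 had 11.2, 10.3 and 10.0 CPM at 24h, against 8.35, 8.45 and 8.78 CPM at 0h. That is a log2 change of 0.30 ± 0.080 (SE, edgeR adjusted p = 0.0187), with 0.00954 to 0.0898 over the alternatives and the highest without 24h replicate 1. Rpl17 rose by 0.21 ± 0.027 on the log2 scale (SE, edgeR adjusted p = 4.82e-06). Tnfaip8, with only 29 bases in a member (0.0255% of its body), rose by 0.16 ± 0.047 (SE, edgeR adjusted p = 0.0294). Over the alternatives (edgeR and DESeq2) its adjusted p was 0.0327 to 0.113, the highest from edgeR without 24h replicate 2.

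Cacna1g, a T-type calcium channel gene with 4600 bases in a member, had 11.8, 8.85 and 8.28 CPM at 24h, against 12.9, 11.4 and 12.5 CPM at 0h. The groups overlapped, and the log2 change was -0.34 ± 0.093 (SE, edgeR adjusted p = 0.0225; 1.18e-04 to 0.182 over the alternatives, the highest without 24h replicate 3). Arhgef19, a guanine nucleotide exchange factor gene, changed by -0.24 on the log2 scale (edgeR adjusted p = 0.0432; 0.0204 to 0.177 over the alternatives, the highest without 0h replicate 2). Ralgds, a Ral exchange factor gene, changed by -0.18 (edgeR adjusted p = 0.0406; 0.0272 to 0.226, the highest without 0h replicate 3). Rasa4, a Ras GTPase-activating protein gene, changed by -0.16 (edgeR adjusted p = 0.0495; 0.0352 to 0.163, the highest without 0h replicate 2). Arhgef10l, another guanine nucleotide exchange factor gene, changed by -0.13 (edgeR adjusted p = 0.0322; 0.0116 to 0.208, the highest without 0h replicate 2). Each of these calls was lost in at least 1 fit that left out a library. Myo18a, an unconventional myosin gene, had 80.1, 71.5 and 73.4 CPM at 24h, against 83.3, 81.0 and 84.0 CPM at 0h, a log2 change of -0.14 (edgeR adjusted p = 0.0149; 4.93e-04 to 0.137 over the alternatives, the highest without 24h replicate 2). Clmp, an adhesion molecule gene, and Slit2 fell by 0.12 and 0.11 on the log2 scale, with edgeR adjusted p of 0.0252 for Clmp (0.0211 to 0.133, the highest with counts of both strands) and 0.0175 for Slit2 (8.21e-04 to 0.147, the highest without 24h replicate 3).

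At 6h against 0h, many more genes changed. Of the 545 tested genes with a member, 71 rose (13.0%) and 136 fell (25.0%), which is 38.0% called, against 39.0% of all genes tested (20.8% up and 18.2% down). Genes with retained regions only had 187 up (19.0%) and 234 down (23.7%) among 986, and all protein-coding genes 23.5% up and 19.8% down. The median log2 change was -0.09 for genes with a member, -0.04 for genes with retained regions only and 0.01 for all protein-coding genes. Of the 70 tested genes with 20% or more of the body in members, 3 rose and 22 fell, with a median of -0.19. Leaving out each library in turn gave 185 to 213 called genes with a member. Genes with a member were therefore called about as often as all genes tested and less often than all protein-coding genes (43.3%). They were called downward more often than all protein-coding genes (25.0% against 19.8%), as were genes with retained regions only (23.7%). Upward calls were fewer, at 13.0% with a member, against 19.0% with retained regions only and 23.5% of all protein-coding genes.

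Among those that rose at 6h, Aldh1a3, a retinoic acid synthesis gene, had 1.58, 2.55 and 1.81 CPM at 6h, against 0.570, 0.575 and 0.506 CPM at 0h. That is a log2 change of 1.84 ± 0.25 (SE, edgeR adjusted p = 7.75e-07). Wnt11 had 3.06, 4.17 and 3.85 CPM at 6h, against 1.37, 1.39 and 1.64 CPM at 0h, a log2 change of 1.32 ± 0.16 (SE, edgeR adjusted p = 1.92e-07). Lrrc4c, a synaptic adhesion gene, rose by 1.1 ± 0.070 (SE, edgeR adjusted p = 5.44e-13). Pkp1, a desmosomal plakophilin gene with 3 members over 30.1% of its body, rose by 1.11, Lad1, a basement membrane anchoring filament gene, by 1.34, Fibcd1 by 1.54, Dok5 by 1.00 and the kinase gene Tnik by 0.90 on the log2 scale. At 24h against 0h the log2 changes of these 8 genes ran from -0.36 to 0.22, with edgeR adjusted p of 0.353 or more. Lgr6, with 5 members, had 26.1, 28.1 and 26.9 CPM at 6h, against 15.9, 16.1 and 15.7 CPM at 0h, and rose by 0.77 ± 0.056 (SE, edgeR adjusted p = 7.75e-12).

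Among those that fell at 6h, Hlf, a PAR bZIP factor gene of circadian output, had 7.46, 6.93 and 6.56 CPM at 6h, against 17.1, 15.9 and 17 CPM at 0h. The log2 change was -1.25 ± 0.075 (SE, edgeR adjusted p = 1.54e-13). Per3, a period gene of the circadian clock, had 12.9, 13.7 and 12.7 CPM at 6h, against 23.9, 22.5 and 21.9 CPM at 0h, a log2 change of -0.80 ± 0.067 (SE, edgeR adjusted p = 1.63e-10). Ank2, with 9 members, had 7.35, 6.60 and 7.50 CPM at 6h, against 14.1, 12.5 and 13.5 CPM at 0h, a log2 change of -0.90 ± 0.092 (SE, edgeR adjusted p = 6.27e-09). Tent5b, Lpin1, Grik2, a kainate receptor gene, Capn5, a calpain gene, and Radil changed by -0.79 to -0.94. At 24h against 0h the log2 changes of these 8 ran from -0.17 to 0.10, with edgeR adjusted p of 0.420 or more.

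Of the genes with large member shares named above, Tbkbp1 fell at 6h, with 0.188, 0.304 and 0.268 CPM, against 0.456, 0.575 and 0.536 CPM at 0h (log2 change -1.05 ± 0.35 SE, edgeR adjusted p = 0.0178). That call was lost without 6h replicate 1 (0.0985) and without 0h replicate 2 (0.0628), in a range of 0.0172 to 0.0985. Prrx2 had 17.3, 16.5 and 18.5 CPM at 6h, against 28.7, 27.0 and 28.2 CPM at 0h, and fell by 0.69 on the log2 scale (edgeR adjusted p = 1.33e-09). Hoxb13 changed by -0.58 at 6h (edgeR adjusted p = 0.0455; 0.167 without 0h replicate 1, in a range of 0.0433 to 0.167). Gli1 had 2.82, 2.40 and 2.95 CPM at 6h, against 3.16, 3.09 and 3.04 CPM at 0h, and was not called. Pax6 was too low to be tested, at 0 to 0.211 CPM over the 9 libraries. The RNA of Ezh2, the target of GSK126, was 74.4, 75.7 and 81.1 CPM at 6h, against 67.9, 69.4 and 68.9 CPM at 0h, and Ezh2 had no member.

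**Figure D5:**
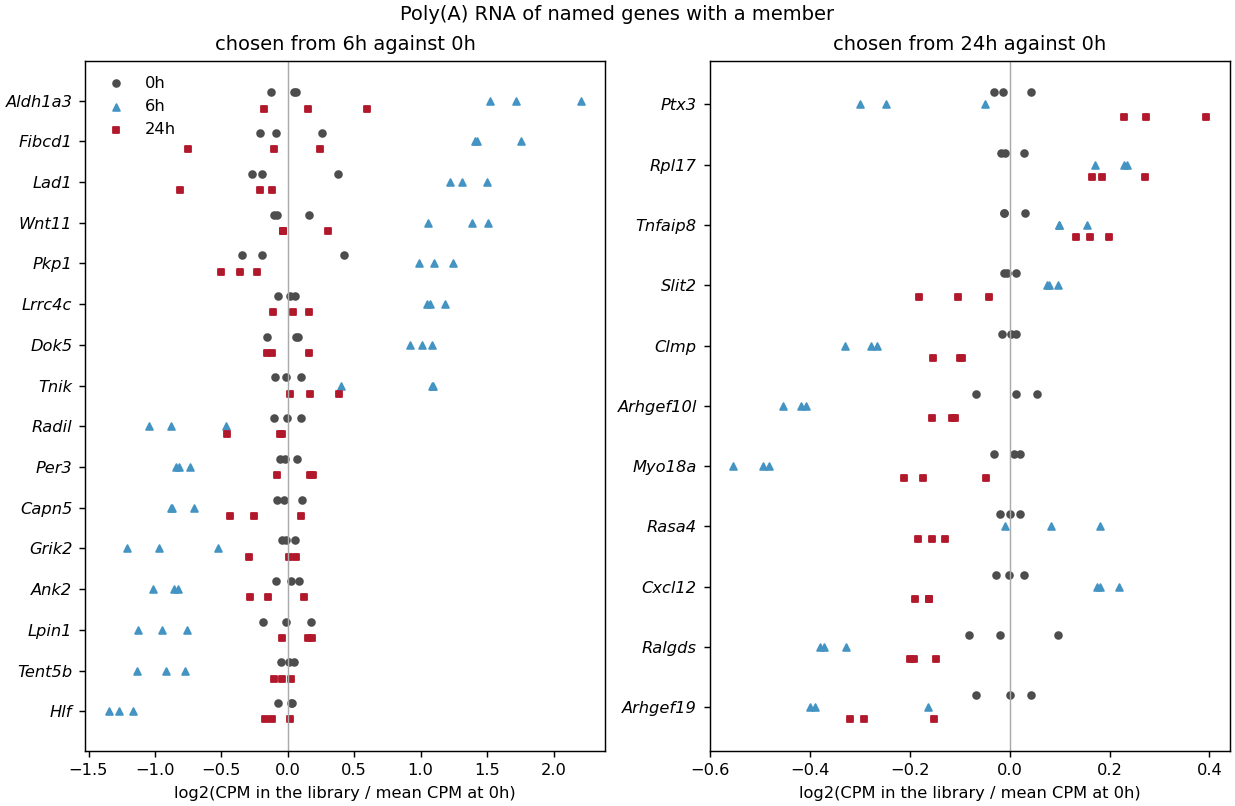
Poly(A) RNA of named genes with a member, as log2 of each library's CPM over the mean at 0h (x axis), with 3 libraries each at 0h (grey circles), 6h (blue triangles) and 24h (red squares). Left, genes chosen from 6h against 0h, whose 6h libraries stand apart while the 24h libraries lie near 0h; right, genes chosen from 24h against 0h, whose fitted changes at 24h lie between -0.24 and 0.30 on the log2 scale.

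Among the family lists, the members of a list that carried a macroH2A2 member and were tested were few. Over all genes tested, 20.8% rose and 18.2% fell at 6h, and 4.17% rose and 2.87% fell at 24h. For synaptic and axonal adhesion genes, 13 were tested, with 2 up and 5 down at 6h and 1 called (Slit2, down) at 24h. Over that whole list of 44 tested genes, 10 rose and 12 fell at 6h and 5 fell at 24h. Of 18 tested fibroblast markers, 4 rose and 11 fell at 6h, and 1 rose and 7 fell at 24h. Of 25 Polycomb group genes, 3 rose and 9 fell at 6h. Kdm2b and Aebp2, the 2 with a member, had log2 changes of -0.09 (edgeR adjusted p = 0.156) and -0.01 (edgeR adjusted p = 0.894) at 6h. Of 71 tested developmental transcription factor genes, 8 rose and 22 fell at 6h; of the 6 with a member, Foxp1 rose by 0.25 (edgeR adjusted p = 3.55e-07) and Prrx2 fell.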

How the data were processed

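Native ChIP-seq of macroH2A2-GFP used MNase-digested chromatin and GFP-Trap beads, with 1 library per condition, and RNA-seq was directional and poly(A)-selected, per the labels' protocols. Per the submitters' processing notes, tools included Bowtie 1.1.2, SICER 1.1 and STAR 2.5.2b, and the build was GRCm38. The deposited region lists give each region a score in whole numbers, its reference not given in the sources used here, and a running number (unit: other) that is not a measurement. The window was 200 bases with a gap of 800 and a caller threshold of 0.01, per the deposited lists' names, and the 5d library was also read at 1000 and 4000. RNA was deposited as raw gene counts, not normalized by the authors.

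Regions were intersected base by base on 16 autosomes (pandas 2.3.3 and numpy 2.4.6 in Python 3.11.15), after the interval functions were tested on simulated data. A region counted as found with 1 base shared. Shares have exact Clopper-Pearson 95% intervals (scipy 1.17.1) that cover counting error only, and the read depth of the regions is unknown. Gene positions and start-site windows are RefSeq's on GRCm38.p6; 15 of the 16 chromosomes had windows.

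RNA counts came from the stranded column, with 29338093 to 37793178 counts over genes per library; 21.2 to 23.1% of reads were assigned to no single gene and left out. All 9 libraries were fitted by edgeR's quasi-likelihood test (version 4.0.16, R 4.3.3, TMM, filterByExpr), with p-values adjusted by Benjamini-Hochberg over all 13785 genes tested. DESeq2 1.42.0 was an alternative. The labels do not say that replicates were separate cultures, so p-values measure the spread between these libraries, which may be technical. CPM of tested genes are TMM-normalised and of other genes plain. Figures used matplotlib 3.10.9.

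The members, the 28 gene lists and the rules for named items were chosen with earlier results of these data known. Named were the 10 members of highest score, the 10 widest, the 10 of highest score found at 6h and 5d but not at 0h or in 6h_GSK126, and the 10 genes of 3 kb or more with most of the body in members. Up to 4 genes per list with most member bases, the 5 with highest CPM at 0h and up to 8 called genes per direction (1 CPM or more, groups not overlapping) could be named too, and 4 start-site sequences. Genes with many members were chosen after their values were seen. An item that these rules select is not reported here.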

Additional observations from a re-analysis of the deposited data

Results flagged for a closer look

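Among the named genes with a member, 3 moved in opposite directions at 6h and 24h, each against 0h, in every library. The other genes with a member were not searched for this. The difference between the 2 times was not tested, and both share the 0h libraries. Cxcl12 had a log2 change of 0.19 at 6h and -0.17 at 24h, Slit2 of 0.08 at 6h and -0.11 at 24h, and Ptx3 of -0.19 at 6h and 0.30 at 24h. Ptx3 was not called at 6h by edgeR (adjusted p = 0.0830; 0.0243 to 0.240 over the alternatives), whereas Cxcl12 was called at both times in all alternatives. The 6h call of Slit2 was lost in each of 3 fits that left out a library (0h replicates 2 and 3, and 6h replicate 3), with an edgeR adjusted p of up to 0.0968. Groups of 3 libraries are too small for a check of single outlying libraries, and each chromatin condition had 1.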

How the results depend on the processing

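The number of members depended on the rule: it was 7929 with a score of 1 or more, 141 with 4 or more, 1846 with no 24h_GSK126 region within 5 kb, and 3155 with under 10% of bases shared, against 3124 as reported. With a score of 1 or more the share of members found was 12.9% at 0h, 47.4% at 6h, 48.8% at 5d, 49.1% for 24h_FP and 40.5% for 6h_GSK126; with 4 or more it was 66.7% at 6h, 45.4% at 5d, 50.4% for 24h_FP, 56.7% for 6h_GSK126 and 11.3% for H2A.Z. Without members within 5 kb of a 24h_GSK126 region it was 39.2% at 5d, 51.3% for 24h_FP and 51.1% for 6h_GSK126. Asking for 50% of the member gave 8.83% at 0h, 45.1% at 6h, 37.0% at 5d, 50.8% for 24h_FP, 34.5% for 6h_GSK126 and 8.35% for H2A.Z, and the wider 5d list gave 56.3%. For H2A.Z the retained regions stood at 7.49% by that 50% rule, below members. The median CG count of start-site windows did not move with windows of 1 base or more. Genes called at 24h against 0h (971) ran from 553 to 1148 when each library was left out, and those with a member (15) from 4 to 17; DESeq2 called 7 of the genes with a member, and 2 had 20% or more of the body in members. At 6h the counts ran from 4667 to 5566 for all genes (5377) and from 185 to 213 for genes with a member (207), of which 25 had 20% or more of the body in members. Replicate numbers did not pair the libraries (correlations of -0.0183 to 0.039 between deviations); a replicate block gave 1027 calls at 24h and 5435 at 6h, with 18 and 211 for genes with a member. Of the named genes with a member, 10 of 12 called at 24h and 4 of 39 called at 6h lost the call in at least 1 alternative. The cause of these changes was not tested. With 1 chromatin library per condition and no read depth, a region without signal and a region just under the caller's threshold are not told apart by these lists.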
